A study of Homo sapiens with 4 samples.

Results

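The genes described here encode the proteins of the cytosolic ribosome, the particle that translates messenger RNA outside the mitochondrion. A gene was a member if its symbol was RPL or RPS followed by a number and at most an A or an X, or if it was RPLP0, RPLP1, RPLP2, RPSA or FAU. The rule used names alone and no measured value. It found 78 of the 23228 genes in the files, 46 of the large subunit (RPL and RPLP genes) and 32 of the small subunit (RPS genes, RPSA and FAU). Daoy, an established cell line from a human medulloblastoma, was profiled by RNA-seq in 2 groups of 2 libraries. One group stably expressed a PELP1 shRNA and the other a control shRNA, both introduced by lentivirus. All 4 libraries therefore share the line, the vector system and the serum-containing medium, no label gives the shRNA sequences, and a single line stands for the tumour. The labels do not say whether duplicates were separate cultures, so p-values here reflect the spread of these 4 libraries and no more, and that spread may be technical.

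Each ribosome is built from a small subunit, which reads the messenger RNA, and a large subunit, which joins the amino acids, and most of their proteins are needed in 1 copy per particle. In mammals nearly all messenger RNAs for these proteins begin with a C and a run of pyrimidines, the terminal oligopyrimidine or TOP motif, through which the growth kinase mTORC1 and the RNA-binding protein LARP1 control their translation and stability. PELP1 is a nuclear scaffold protein known, among other roles, as part of a nucleolar complex that helps to process ribosomal RNA for the large subunit, which is why the 2 subunits were compared.

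The start sites of 10 members are shown because the TOP motif is the element these genes share. Each line gives 10 bases before and 20 from the RefSeq start on the gene's own strand, 5′ to 3′, with hg19 coordinates, and the capitals mark the unbroken pyrimidine run that opens with a C at the listed start.
RPL12, chr9:130213666-130213695, minus strand: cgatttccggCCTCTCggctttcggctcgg
RPL35, chr9:127624217-127624246, minus strand: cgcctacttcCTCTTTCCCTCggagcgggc
RPLP0, chr12:120638895-120638924, minus strand: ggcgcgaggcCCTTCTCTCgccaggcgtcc
FAU, chr11:64889587-64889616, minus strand: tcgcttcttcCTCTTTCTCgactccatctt
RPS19, chr19:42364315-42364344, plus strand: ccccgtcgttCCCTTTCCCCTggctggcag
RPL35A, chr3:197677051-197677080, plus strand: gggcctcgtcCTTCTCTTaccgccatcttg
RPS18, chr6:33239842-33239871, plus strand: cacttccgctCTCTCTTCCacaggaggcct
RPS25, chr11:118889034-118889063, minus strand: gcagcgcttcCTTTTTgtccgacatcttga
RPL4, chr15:66797174-66797203, minus strand: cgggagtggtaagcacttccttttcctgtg
RPS4X, chrX:71497079-71497108, minus strand: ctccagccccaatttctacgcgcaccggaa
As the values below give, the first 5 of these genes fell, RPL35A, RPS18 and RPS25 did not pass the test, and RPL4 and RPS4X, which fell, have no run at the listed start. RefSeq start windows (GRCh38.p14 build) were found for 63 members. A C opening a run of at least 5 pyrimidines stood at a listed start in 47 of these 63 (74.6%), against 1404 of 27305 genes in the table (5.1%). Another pair of motifs was searched on both strands from 250 bases before to 50 after the start. The letters CCGGAAG, which hold the core that ETS factors bind, were in 22 members (34.9%, against 12.2% of all genes), and CTCTTTCC, a TOP-like run that can overlap the start, in 11 (17.5%, against 3.7%). These matches are descriptions of the letters and not measured sites.

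The PELP1 shRNA libraries held 29221640 and 26760085 counts in genes, and the control shRNA libraries 24052542 and 26629578. Levels are given as CPM, counts scaled by library size and edgeR's TMM factors. Of 10 neural markers used to check the labelled cell type, 9 were tested. Of these, 4 were called higher (44.4%, against 28.6% of all genes) and 3 lower (33.3%, against 29.5%). VIM averaged 3894 CPM in PELP1 shRNA cells and 5548 CPM in control shRNA cells, and SOX9 80.9 and 73.4 CPM. In the same order PAX6 had 23.3 and 16.05 CPM, GLI2 23.5 and 38.5, and ZIC1 19.0 and 21.1. SOX2 had 6.93 and 8.71 CPM, OTX2 7.03 and 5.02, NES 7.17 and 5.25, and GLI1 1.24 and 0.70. ATOH1, which marks granule cell precursors, was near 0 (0.033 CPM in PELP1 shRNA cells, 0.10 CPM in control shRNA cells). The 13 markers of other cell types summed to 17.6 and 14.8 CPM in PELP1 shRNA libraries, against 24.3 and 23.4 CPM in control shRNA libraries. Of 8 tested, 7 changed, 4 higher (50.0%, against 28.6% of all genes) and 3 lower (37.5%, against 29.5%). Among these, PECAM1 had 1.83 CPM in PELP1 shRNA cells and 0.37 in control shRNA cells, PDGFRA 1.21 and 5.63, and PDGFRB 7.75 and 14.2. Markers of the same cell type went both ways. In the same order, the endothelial markers VWF and CDH5 had 1.55 and 0.72 CPM and 0.28 and 0.74 CPM. The fibroblast marker DCN, at 0.99 and 0.38 CPM, was called higher, unlike PDGFRA and PDGFRB. PTPRC, CD3E, CDH1 and KRT5, which mark leukocytes and epithelia, were under 0.30 CPM in every library. CD14, also of leukocytes, had 1.89 and 0.69 CPM in PELP1 shRNA libraries, against 1.33 and 0.74 CPM in control shRNA libraries. EPCAM, also epithelial, had 0.70 and 0.87 CPM in PELP1 shRNA libraries, against 0.39 and 0.12 CPM in control shRNA libraries, and was called higher. The part of the marker changes in the ribosomal protein values was not tested. The target of the shRNA was reduced. PELP1 had 55.6 and 49.7 CPM in PELP1 shRNA libraries, against 168 and 185 CPM in control shRNA libraries, so the log2 fold change was −1.75 ± 0.05 (SE; FDR 1.54e-33 by edgeR's quasi-likelihood test). FDR is the Benjamini-Hochberg adjusted p over all 14972 genes tested.

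Ribosomal protein messages of both subunits were modestly lower in PELP1 shRNA cells, and no member was called higher. Of 76 members tested, 48 (63.2%) fell at FDR 0.05, none was called higher and 28 missed the threshold. Their median log2 fold change was −0.19. Over all genes tested 58.1% were called, 29.5% lower and 28.6% higher, with a median of 0.00. By DESeq2, 44 members were lower (57.9%, against 23.2% of all genes) and 0 higher (20.7% of all genes). One member, RPL15, was higher at an unadjusted p under 0.05 by edgeR, and limma-voom called 1 member higher, RPS25. The changes were small: 3 of the 48 fell by more than 1.5-fold, against 1304 of the 4424 genes called lower among all genes tested. CPM of the groups did not overlap for 56 members that were lower (38.7% of all genes tested) and 5 that were higher (39.0% of all genes). Read counts from bulk RNA are shares of each library, so fewer cells making these messages and less of the message per cell cannot be told apart.

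The 2 remaining members, 1 of them RPL21, were listed at 0 counts in all 4 libraries, and RPL21 coding sequence has no stretch of read length that occurs once in the genome. All 76 others passed the low-count filter.

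**Figure D1:**
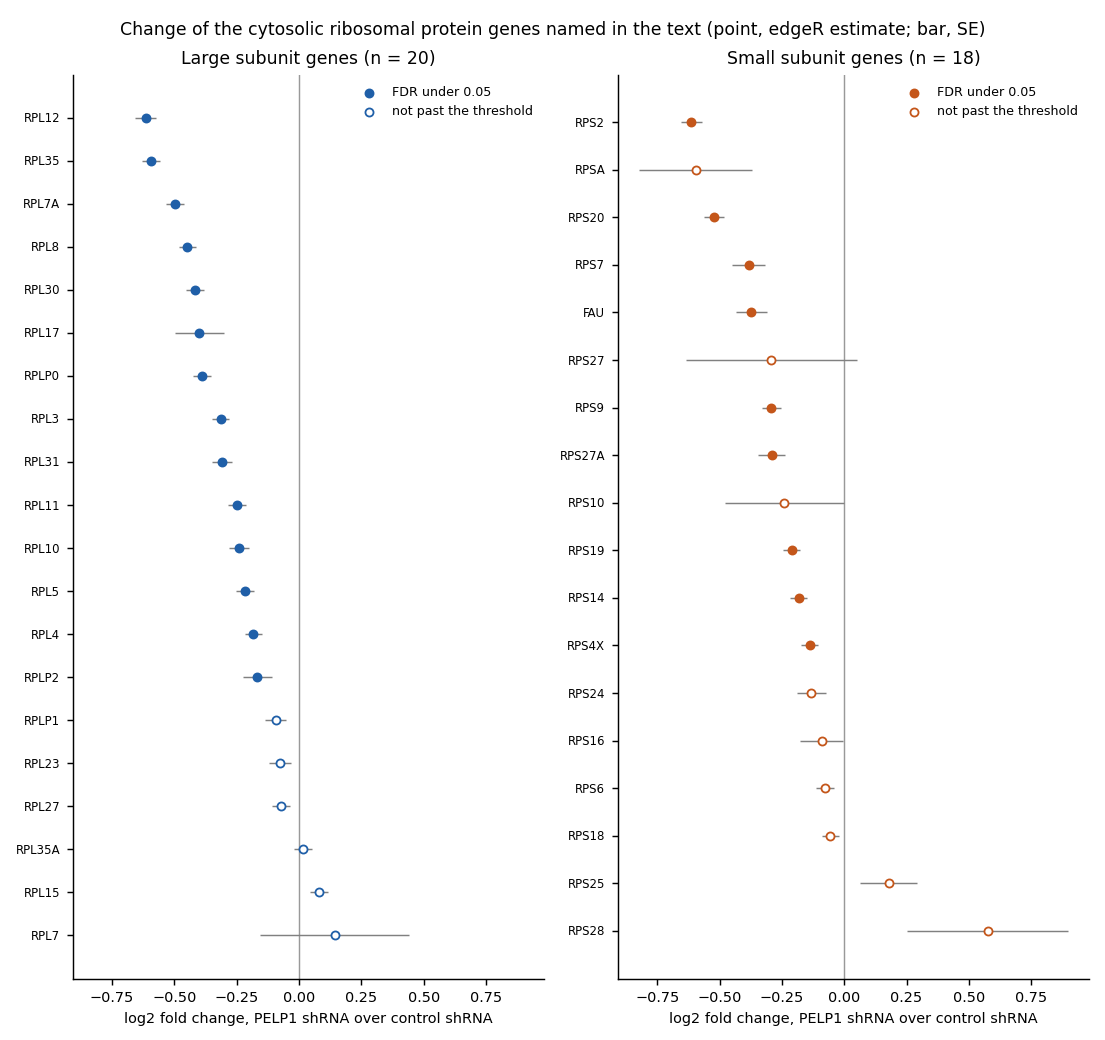
Log2 fold change, PELP1 shRNA over control shRNA, of the 38 tested members that the text names (x axis; points with bars of 1 SE), sorted within the large (left, 20 genes) and small (right, 18 genes) subunit; filled points passed FDR 0.05. Points run from −0.61 to 0.14 in the large and from −0.61 to 0.57 in the small subunit, and no filled point lies right of 0.

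In the large subunit 29 of 45 tested members fell (64.4%, against 29.5% of all genes). Another 16 missed the threshold, and 0 were called higher (28.6% of all genes). The median log2 fold change was −0.19, and the quartiles were −0.30 and −0.08. Those with the largest changes past the threshold included RPL12, RPL35, RPL7A, RPL8, RPL30, RPL17 and RPLP0, at 65.3% to 76.4% of the control mean.

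The stalk of the large subunit, which recruits the GTPases that drive elongation, held the member that fell most. RPL12, the protein at the base of the stalk (chr9:130209953-130213685), had 116 and 119 CPM in PELP1 shRNA libraries, against 176 and 184 CPM in control shRNA libraries. Its log2 fold change was −0.61 ± 0.04 (SE; FDR 5.70e-20). RPLP0, the scaffold of the stalk, had 274 and 267 CPM in PELP1 shRNA libraries, against 350.3 and 357 CPM in control shRNA libraries (log2 fold change −0.39 ± 0.04). Both were well separated between the groups. The acidic proteins that RPLP0 carries were not. RPLP2 had 242 and 217 CPM in PELP1 shRNA libraries, against 242 and 273 CPM in control shRNA libraries. Its fall of 0.17 on the log2 scale passed (FDR 0.0272), but not without control shRNA replicate 2 (FDR 0.161), without PELP1 shRNA replicate 2 (FDR 0.152) or by DESeq2 (adjusted p = 0.239), and it was −0.25 (FDR 1.43e-07) without control shRNA replicate 1. RPLP1 overlapped between groups, with 280.1 and 258 CPM in PELP1 shRNA libraries and 272 and 302 CPM in control shRNA libraries (log2 fold change −0.09, FDR 0.0604). It passed without control shRNA replicate 1 (−0.17, FDR 0.000589) or PELP1 shRNA replicate 1 (−0.15, FDR 0.0145), and was −0.02 (FDR 0.771) without control shRNA replicate 2 and −0.04 (FDR 0.582) without PELP1 shRNA replicate 2. In all, 3 of the 4 stalk genes fell, with a median of −0.28.

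RPL35, a protein at the rim of the tunnel through which the new chain leaves (chr9:127620159-127624260), had 284 and 285 CPM in PELP1 shRNA libraries, against 434 and 426 CPM in control shRNA libraries. It fell by 0.60 ± 0.04 on the log2 scale (FDR 9.38e-23), and duplicates lay close together in both groups. Of the 9 genes for proteins along or around the exit tunnel, 3 missed the threshold (median log2 fold change of the 9, −0.19). The 6 that fell made up 66.7%, against 29.5% of all genes. Among them RPL31 fell by 0.31, RPL17 by 0.40 and RPL4, which lines the tunnel, by 0.18 on the log2 scale. RPL17 was measured at 11.1 and 11.2 CPM in PELP1 shRNA libraries, against 14.9 and 14.6 CPM in control shRNA libraries, and its exons overlap the read-through gene RPL17-C18orf32 by 595 bases on the same strand.

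Messages of proteins near the catalytic centre were also lower. RPL8 had 681 and 711 CPM in PELP1 shRNA libraries, against 926 and 973 CPM in control shRNA libraries (log2 fold change −0.45 ± 0.03, FDR 7.95e-18). RPL3 had 487 and 471 CPM in PELP1 shRNA libraries, against 588 and 603 CPM in control shRNA libraries (−0.31 ± 0.03). RPL8 had the largest change among members whose coding sequence is nearly all without a copy elsewhere in the genome, at 95.4% of its 50-base windows.

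Of the other strong members, RPL7A had 289 and 279 CPM in PELP1 shRNA libraries, against 401 and 402 CPM in control shRNA libraries (log2 fold change −0.50 ± 0.04). RPL30 had 360.1 and 382 CPM in PELP1 shRNA libraries, against 497 and 494 CPM in control shRNA libraries (−0.42 ± 0.04). In both of these the PELP1 shRNA libraries were the lower pair.

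RPL5 and RPL11 bind 5S ribosomal RNA, and outside the ribosome this particle can bind the ubiquitin ligase MDM2. RPL5 had 646 and 695 CPM in PELP1 shRNA libraries, against 804 and 753 CPM in control shRNA libraries (log2 fold change −0.22 ± 0.04, FDR 9.56e-07). RPL11 had 601 and 640 CPM in PELP1 shRNA libraries, against 749.6 and 724 CPM in control shRNA libraries (−0.25 ± 0.04, FDR 1.03e-08). Both large subunit members were lower in each PELP1 shRNA library than in either control shRNA library. RRS1, which helps to bring the particle into the large subunit, fell by 0.28 on the log2 scale. CDKN1A, a cell cycle inhibitor, fell by 0.86 on the log2 scale (41.4 and 42.4 CPM in PELP1 shRNA libraries, against 73.8 and 78.2 CPM in control shRNA libraries). MDM2 did not pass (0.10 ± 0.06, FDR 0.164).

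The most abundant large subunit members that passed no threshold were RPL35A, RPL27, RPL23 and RPLP1. RPL35A had 409.9 and 422 CPM in PELP1 shRNA libraries, against 421 and 402 CPM in control shRNA libraries (log2 fold change 0.02 ± 0.04, FDR 0.733). RPL27 (−0.07, FDR 0.0790) and RPL23 (−0.08, FDR 0.127) lay nearer to 0 than the median of their subunit, and RPL23 passed without control shRNA replicate 2 (−0.16, FDR 0.000801). The sign of RPL35A turned without control shRNA replicate 2 (−0.02) or PELP1 shRNA replicate 2 (−0.01), and that of RPL23 without control shRNA replicate 1 (0.01). RPL15, named after its values were seen, had 265 and 269 CPM in PELP1 shRNA libraries, against 254 and 251 CPM in control shRNA libraries (0.08 ± 0.04, FDR 0.0607), and it passed as higher under upper-quartile scaling (FDR 0.00170), library size alone (FDR 4.80e-05) and either other filter.

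In the small subunit 19 of 31 tested members fell (61.3%, against 29.5% of all genes). Another 12 missed the threshold, and 0 were called higher (28.6% of all genes). Their median log2 fold change was −0.21, and the quartiles were −0.29 and −0.10. Those with the largest changes past the threshold included RPS2, RPS20, RPS7, FAU, RPS9 and RPS27A. Without control shRNA replicate 2 the median of the subunit was −0.14.

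RPS2, which lies at the channel where messenger RNA enters the ribosome (chr16:2012059-2014842), had 121 CPM in each PELP1 shRNA library, against 180.0 and 190.1 CPM in control shRNA libraries. It fell by 0.61 ± 0.04 on the log2 scale (FDR 4.97e-20), to 65.4% of the control mean. RPS20 had 155 and 159 CPM in PELP1 shRNA libraries, against 225 CPM in each control shRNA library (−0.52 ± 0.04). These were the largest called changes of the subunit, and neither overlapped between groups. RPS7 had 33.5 and 30.2 CPM in PELP1 shRNA libraries, against 41.2 and 41.9 CPM in control shRNA libraries (−0.38 ± 0.07). RPS9 fell by 0.29 ± 0.04 on the log2 scale.

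FAU and RPS27A each encode a fusion, of a ubiquitin-like protein with RPS30 in FAU and of ubiquitin with the ribosomal protein in RPS27A. FAU had 140 and 133 CPM in PELP1 shRNA libraries, against 162 and 191 CPM in control shRNA libraries (log2 fold change −0.37 ± 0.06, FDR 8.06e-05). RPS27A had 104 and 87.8 CPM in PELP1 shRNA libraries, against 117 and 118 CPM in control shRNA libraries (−0.29 ± 0.05). In both, the duplicates lay further apart than those of RPS2, and the groups did not overlap. FAU was −0.25 without control shRNA replicate 2 and −0.49 without control shRNA replicate 1, and RPS27A was −0.18 without PELP1 shRNA replicate 2 and −0.42 without PELP1 shRNA replicate 1, each past the threshold.

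RPSA, known also as the 67 kDa laminin receptor, had 52.8 and 37.3 CPM in PELP1 shRNA libraries, against 68.5 and 68.2 CPM in control shRNA libraries. Its log2 fold change of −0.60 was as large as that of RPS2, but the PELP1 shRNA libraries lay far apart and it did not pass (SE 0.23, FDR 0.150). Without control shRNA replicate 2 it also did not pass (−0.60, FDR 0.469). It passed without PELP1 shRNA replicate 1 (−0.87, FDR 5.68e-13), without PELP1 shRNA replicate 2 (−0.37, FDR 1.43e-05) and without control shRNA replicate 1 (−0.60, FDR 2.12e-17), where the spread of the lone library is assumed to be like that of the other group. It passed by DESeq2 (adjusted p = 0.0332), by limma-voom (9.69e-09), with a replicate block (9.67e-19) and at an assumed variation of 10% (0.000469), but not with upper-quartile factors (0.173), library size alone (0.197), no filter (0.0785) or the filter of 5 CPM (0.150). Both PELP1 shRNA libraries were below both control shRNA libraries, and the size of the difference rests on which of the PELP1 shRNA libraries is used.

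RPS19, the gene most often mutated in the inherited anaemia Diamond-Blackfan anaemia, had 484 and 476 CPM in PELP1 shRNA libraries, against 563 and 548 CPM in control shRNA libraries (log2 fold change −0.21 ± 0.03). RPS14, whose loss of a copy marks the 5q- syndrome, had 617 and 594 CPM in PELP1 shRNA libraries, against 681 and 693 CPM in control shRNA libraries (−0.18 ± 0.03). Of 18 tested Diamond-Blackfan anaemia genes of both subunits, 9 fell (50.0%, against 29.5% of all genes) and 0 were called higher (28.6% of all genes). The other 9 missed the threshold, and the median log2 fold change of the 18 was −0.19. RPL35 had the largest called change among the 18.

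RPS6, the substrate of the S6 kinases downstream of mTORC1, had 389 and 407 CPM in PELP1 shRNA libraries, against 416 and 425 CPM in control shRNA libraries. Its log2 fold change of −0.08 ± 0.04 just missed the threshold (FDR 0.0544). It passed without control shRNA replicate 1 (FDR 0.0476) or PELP1 shRNA replicate 2 (FDR 0.0436), but not without control shRNA replicate 2 (FDR 0.227) or PELP1 shRNA replicate 1 (FDR 0.445). RPS18 (−0.06, FDR 0.183), RPS16 (−0.09, FDR 0.428) and RPS24 (−0.13, FDR 0.0655) were the other abundant members that did not pass. Single libraries decided these. RPS16 was −0.20 (FDR 4.33e-06) without control shRNA replicate 1 and 0.03 without control shRNA replicate 2. RPS24 was −0.25 (FDR 5.49e-05) without PELP1 shRNA replicate 2 and −0.02 (FDR 0.797) without PELP1 shRNA replicate 1. It passed without either control shRNA replicate (FDR 0.0145 without replicate 1, 0.00945 without replicate 2), with a replicate block (adjusted p = 0.0133), by limma-voom (0.0104) and with no filter (0.00468), but not by DESeq2 (0.375), with upper-quartile factors (0.262) or with library size alone (0.523). RPS18 was −0.12 (FDR 0.0309) without PELP1 shRNA replicate 2 and 0.00 without PELP1 shRNA replicate 1. RPS25, a protein that some viral messages need for internal initiation and named here after its values were seen, had 180.3 and 219.8 CPM in PELP1 shRNA libraries, against 175 and 178 CPM in control shRNA libraries. Its log2 fold change of 0.18 ± 0.11 did not pass (FDR 0.271), and 1 library decides it. It was 0.03 (FDR 0.685) without PELP1 shRNA replicate 2 and 0.32 (FDR 2.07e-06) without PELP1 shRNA replicate 1. It was called higher without control shRNA replicate 1 (FDR 0.00206) but not without control shRNA replicate 2 (FDR 0.208). It also passed with a replicate block (FDR 0.00154), by limma-voom (FDR 0.00501) and with no filter (FDR 0.000278), but not by DESeq2 (adjusted p = 0.322), with upper-quartile factors (0.182) or with library size alone (0.115).

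**Figure D2:**
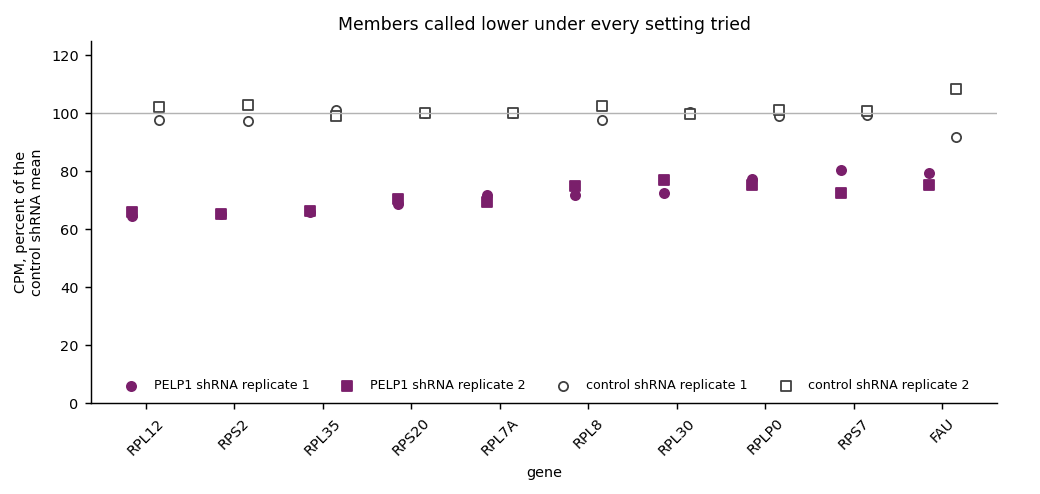
CPM of each library as a percentage of the control shRNA mean (y axis from 0, grey line at 100%) for 10 members called lower under every setting tried; filled symbols are PELP1 shRNA and open symbols control shRNA libraries, circles replicate 1 and squares replicate 2. For each gene both filled symbols lie below both open ones, with means from 65.3% in RPL12 to 77.3% in FAU. The genes were chosen by calls in these same libraries, so the separation is no further support for the change.

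The test was repeated under 12 other settings of scaling, filter, tool, block, assumed variation and libraries used. In every one, 12 members, 7 large and 5 small, were called lower (15.8% of those tested, against 11.5% of all genes). They included RPL12, RPL35, RPL7A, RPL8, RPL30 and RPLP0, and RPS2, RPS20, RPS7 and FAU. When each library in turn was left out, 37 members, 21 large and 16 small, were called lower every time (48.7%, against 21.1% of all genes). Each of these fits leaves 1 library in a group, which is assumed to vary like the pair of the other group, so their FDRs rest on the spread of 1 pair. Scaling set much of the count. With library sizes alone as the scale, 35 members were lower (46.1%, against 22.1% of all genes) and 6 higher (37.9% of all genes). With an assumed biological variation of 10%, in place of the 2.99% estimated from these duplicates, 13 members were lower (17.1%, against 14.5% of all genes) and 0 higher (14.6% of all genes). At that variation the share of members called lower was therefore near that of the whole table.

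Summed over members, both subunits were lower by similar amounts. Large subunit genes together had 11473 and 11700.3 CPM in PELP1 shRNA libraries, against 13413 and 13492 CPM in control shRNA libraries, which put the mean at 86.1% of the control mean. Small subunit genes had 7444 and 7523 CPM in PELP1 shRNA libraries, against 8368 and 8585 CPM in control shRNA libraries, or 88.3%. All members took 1.95% and 1.98% of gene counts in PELP1 shRNA libraries, against 2.12% and 2.13% in control shRNA libraries. The ratio of the large to the small sum was 1.541 and 1.555 in PELP1 shRNA libraries, against 1.603 and 1.572 in control shRNA libraries. These ratios did not overlap. The group means, 1.548 ± 0.010 and 1.587 ± 0.022 (SD), lay further apart than the 2 control shRNA libraries. The nearest libraries of the 2 groups, at 1.555 and 1.572, lay closer together than the control shRNA libraries. An exact two-sided permutation test gave p = 0.333, the smallest that 2 against 2 libraries allow. Without the members whose exons overlap another gene, the mean ratio was 1.501 ± 0.008 in PELP1 shRNA cells and 1.530 ± 0.012 in control shRNA cells (SD, n = 2 each). A difference between subunits was not shown at this number of libraries.

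**Figure D3:**
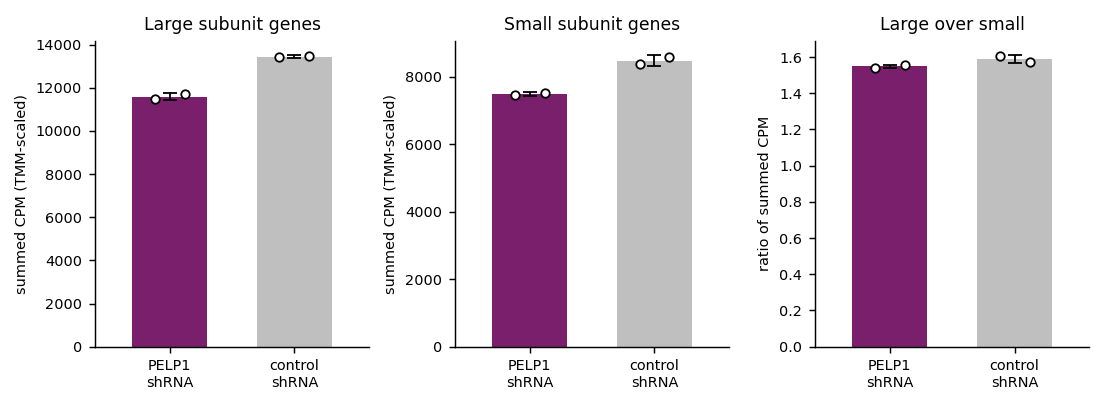
Summed CPM of large and small subunit genes and the ratio of the 2 sums (y axes from 0; bars are means of 2 libraries, error bars SD, points libraries), with PELP1 shRNA left of control shRNA. Means are 11586 ± 161 against 13452 ± 56.2 CPM for the large subunit and 7484 ± 56.4 against 8476 ± 154 CPM for the small, and the ratios, 1.541 and 1.555 against 1.603 and 1.572, lie close together.

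Most ribosomal protein genes have many processed copies in the genome, so a 50-base read from them often aligns to several places and is not counted. Non-unique alignments made up 29.4% and 29.6% of the totals in PELP1 shRNA libraries, against 30.8% and 30.7% in control shRNA libraries. A 50-base coding window was called unique if it had no match in hg19 outside the gene and no repeat within it. Windows across an exon junction that match nowhere in the genome count as unique too. The share of unique windows tracked the level of the members. Its Spearman correlation with control CPM per coding kilobase was 0.87 over 78 genes, which share the same libraries. The 20 members with at least 75% unique windows had a median of 1150 CPM per coding kilobase in control shRNA cells, the 36 with 25% to 75% had 485, and the 22 below 25% had 53.3. The 8 members with no unique window had a median of 14.0. RPS10, RPS27, RPS28 and RPL7 held 15 to 65 reads a library, and none of them passed. RPS27 had 19 and 25 reads in PELP1 shRNA libraries, against 19 and 27 in control shRNA libraries. RPS28 had 46 and 26 reads in PELP1 shRNA libraries, against 15 and 26 in control shRNA libraries (log2 fold change 0.57, FDR 0.122), and passed without PELP1 shRNA replicate 2 (0.87, FDR 0.0451). RPS10 changed sign without PELP1 shRNA replicate 1 (−0.24 with it, 0.12 without), and its exons overlap the read-through gene RPS10-NUDT3 by 494 bases.

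**Figure D4:**
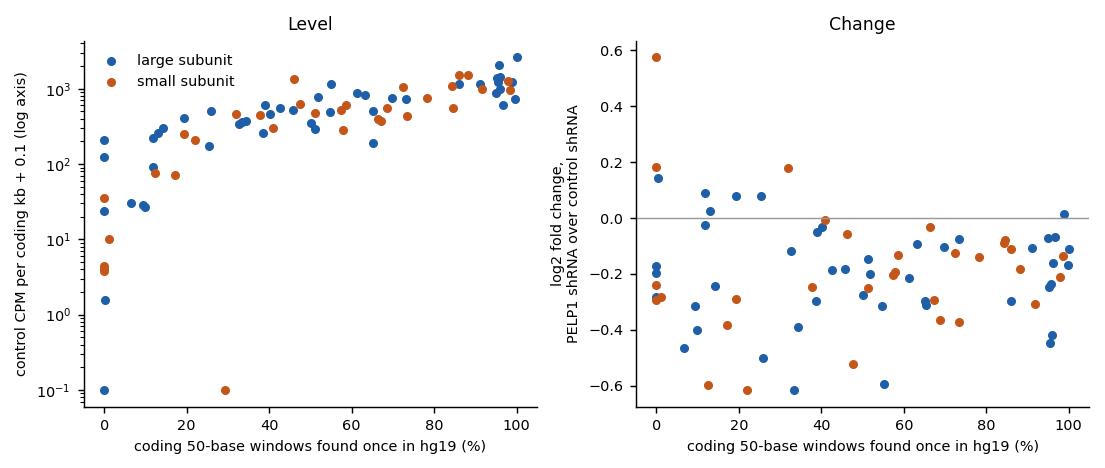
Left, control CPM per coding kilobase plus 0.1 (log axis) against the percentage of unique coding 50-base windows, for 78 members. Right, log2 fold change, PELP1 shRNA over control shRNA, against the same percentage for 76. The axis names these windows as found once in hg19, and they include junction windows found nowhere in it. The level climbs with the percentage (Spearman 0.87), and the fold change has no trend (0.03).

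The fold changes did not follow this measure. Their Spearman correlation was 0.03 with the share of unique windows, −0.23 with coding length, −0.06 with GC content and −0.01 with the control level, over 76 genes. Among the 20 members with at least 75% unique windows 15 fell and 5 missed the threshold (median −0.15). They comprised 9 of 12 large subunit genes (median −0.17) and 6 of 8 small subunit genes (median −0.14). Between 25% and 75%, 25 of 35 tested members fell (71.4%, median −0.20), and below 25%, 8 of 21 fell (38.1%, median −0.24). The strongest members spanned the range. RPS2 had fewer than 25% unique windows and RPL12 33.4%, against 55.1% in RPL35, 95.4% in RPL8 and 96.0% in RPL30. For RPL12 and RPS2 the counts are therefore those of part of the gene, and the part of uncounted reads in their change was not tested. The 53 tested members without an exon overlap with another gene fell in 34 cases (64.2%), with a median of −0.18.

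Introns of many ribosomal protein genes carry small nucleolar RNAs, which guide chemical changes of ribosomal RNA and are released when the host transcript is spliced. Of 28 tested members with an annotated small nucleolar RNA gene inside, 21 fell and 7 did not pass (median −0.26), against 27 of 48 other members (median −0.16). RPL7A hosts 4 and RPS2 hosts 2, while RPL35 and RPL8 host none. Of 46 tested members with a TOP run at a listed start 27 fell (58.7%, median −0.19). Of 16 with no such run at a listed start 10 fell (62.5%, median −0.14), among them RPL4 (−0.18 ± 0.03) and RPS4X (−0.14 ± 0.03). The 16 are not known to lack the motif, since a listed start may be offset. In RPL4 a pyrimidine run stands a few bases after the listed start. RPS4X did not pass with library sizes alone (FDR 0.217). These groups were compared by count only.

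**Figure D5:**
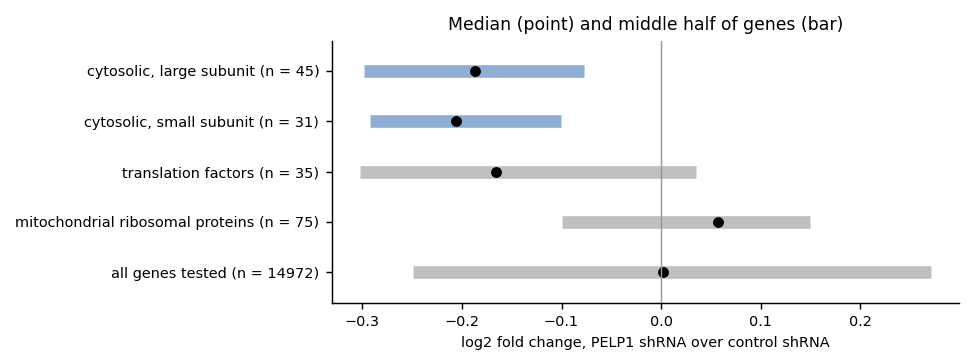
Median (point) and the range between the quartiles (bar) of log2 fold changes, PELP1 shRNA over control shRNA, for 2 ribosomal subunits, translation factors, mitochondrial ribosomal proteins and all genes tested. Medians are −0.19 for the large subunit, −0.21 for the small subunit, −0.17 for translation factors, 0.06 for mitochondrial ribosomal proteins and 0.00 for all genes; only the bars of the 2 cytosolic subunits lie wholly below 0.

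Genes next to the ribosome gave a mixed picture. Of 9 tested paralogs and other ribosomal protein genes, 5 fell (55.6%, against 29.5% of all genes) and 2 rose (22.2%, against 28.6%). RPL10L, an RPL10 copy known for its role in male germ cells, rose by 0.85 ± 0.15 on the log2 scale (6.595 and 6.31 CPM in PELP1 shRNA libraries, against 3.81 and 3.38 CPM in control shRNA libraries). RPL39L rose by 0.37 and RPL22L1 fell by 0.49. GNB2L1, which encodes the small subunit scaffold RACK1, fell by 0.22 on the log2 scale, to 1598 and 1563 CPM in PELP1 shRNA libraries, against 1812 and 1864 CPM in control shRNA libraries.

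Of 19 genes of mTORC1 and TOP control, 7 were higher (36.8%, against 28.6% of all genes) and 6 lower (31.6%, against 29.5%). The other 6 were past no threshold, and the median of the 19 was 0.04. The translational repressor EIF4EBP2 rose by 0.53, its relative EIF4EBP1 fell by 0.50, the kinase MTOR fell by 0.41 and LARP1 fell by 0.29 on the log2 scale. MTOR had 113 and 109 CPM in PELP1 shRNA libraries, against 147 and 148 CPM in control shRNA libraries. A further 13 genes were listed as chaperones or importers of ribosomal proteins, not all of them dedicated to that task. Of these, 5 rose (38.5%, against 28.6% of all genes) and 6 fell (46.2%, against 29.5%), with a median of −0.07. The importin IPO5 rose by 0.33, and HEATR3, which in yeast and human cells brings in RPL5 and RPL11, fell by 0.30 and TNPO1 by 0.26 on the log2 scale.

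The proteins of the mitochondrial ribosome are encoded in the nucleus and serve a separate particle. Of 75 tested, 22 were higher (29.3%, against 28.6% of all genes), 18 were lower (24%, against 29.5% of all genes) and 35 missed the threshold (median log2 fold change 0.06), shares near those of the whole table. MRPL46 rose by 0.79 (23.1 and 24.9 CPM in PELP1 shRNA libraries, against 14.2 and 13.6 CPM in control shRNA libraries), MRPS31 rose by 0.60 and MRPS2 fell by 0.58 on the log2 scale. Translation initiation and elongation factors lay closer to the cytosolic ribosomal proteins, with 21 of 35 tested lower (60.0%), 6 higher (17.1%) and a median of −0.17. EIF4H, a helper of the helicase eIF4A, had 207 and 204 CPM in PELP1 shRNA libraries, against 407 and 402 CPM in control shRNA libraries (log2 fold change −0.98 ± 0.04). EEF1D fell by 0.77, PABPC1 fell by 0.50, and TPT1, itself a well-known TOP message, rose by 0.63 ± 0.04 on the log2 scale (904 and 966 CPM in PELP1 shRNA libraries, against 616 and 593 CPM in control shRNA libraries). EIF3C and EIF4A1 were listed at 0 in these files.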

How the data were processed

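Total RNA from Daoy cells was made into 4 TruSeq libraries and read as 50-base single ends, per the labels' protocols. Per the submitters' processing notes, TopHat2 2.0.8b aligned the reads (build hg19) and HTSeq counted them. The sources used here give no HTSeq version, strand setting or annotation. The deposited values are raw read counts per gene symbol, unnormalised, for 23228 genes. The 5 rows that name no gene stayed out of library sizes. They held non-unique alignments (29.38% to 30.82% of totals), reads in no gene (8.83% to 9.08%) and ambiguous reads (0.58% to 0.60%).

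From these counts edgeR 4.0.16 (R 4.3.3) gave TMM-scaled CPM and the quasi-likelihood F test of PELP1 shRNA over control shRNA, two-sided, robust, after filterByExpr, which kept 14972 genes. The FDR threshold was 0.05. SE is the fold change divided by the square root of F. DESeq2 1.42.0 and limma 3.58.1 (voom) were alternatives, with upper-quartile factors, library sizes alone, no filter, at least 5 CPM in 2 libraries, each library left out, a replicate block and an assumed variation of 10%. The script was tested on simulated data. Coding windows and exon overlaps came from GRCh37 with GENCODE v44lift37 canonical transcripts, and start windows from RefSeq, where any listed start of a gene counted. Duplicates differed by more than counting noise (chi-square per degree of freedom 2.37 for the PELP1 shRNA pair and 2.47 for the control shRNA pair).

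Named genes were PELP1; in each subunit the 8 largest called changes and the 4 most abundant members past no threshold; all members called higher; RPLP0, RPLP1, RPLP2, RPSA, FAU, RPL5, RPL11, RPL3, RPS6, RPS19 and RPS14; members under 1 CPM; and up to 3 called genes of each other list. RPL4, RPS4X, RPL15, RPS25, RPL7, RPS10, RPS28, GNB2L1, PABPC1, LARP1 and the marker genes were named after their values were seen. Some genes that the rule names are not reported here. The members and lists were chosen with earlier results of these data known.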

Additional observations from a re-analysis of the deposited data

How the results depend on the processing

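The 64 named genes gave 763 comparisons over 12 other settings. Of these, 691 kept direction and side of the threshold, 33 passed only in the other setting, 28 passed only in the main test and 11 changed sign. No called gene changed sign.

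Calls depended most on the assumed variation. At 10%, large subunit genes called lower came to 7 and small subunit genes to 6, and the whole table to 2176 lower and 2187 higher. Large subunit genes called higher were 2 with upper-quartile factors, 5 with library size alone, 1 with no filter and 1 with the filter of 5 CPM. Small subunit genes called higher were 1 with upper-quartile factors, library size alone, limma-voom, no filter or the replicate block, and 0 to 1 with a library left out. With a library left out, which leaves 1 group's spread to the other group's pair, 26 to 29 large and 18 to 22 small subunit genes were lower. Median log2 fold changes of the large subunit were −0.13 with upper-quartile factors and −0.10 with library size alone. Those of the small subunit were −0.15, −0.12 and, with the filter of 5 CPM, −0.18, and −0.21 to −0.14 with a library left out. Log2 ratios of the summed CPM were −0.16 and −0.13 for the large and −0.13 and −0.09 for the small subunit under these scalings. These scalings moved the median of all genes by 0.05 and 0.09.

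With library size alone RPL27 (0.017), RPL23 (0.013), RPS18 (0.034) and RPS6 (0.011) changed sign. With a library left out, log2 fold changes spanned 0 for RPL35A (−0.018 to 0.048), RPL23 (−0.160 to 0.009), RPS18 (−0.117 to 0.004), RPS16 (−0.204 to 0.032), RPS10 (−0.679 to 0.117) and RPL7 (−0.147 to 0.399). The cause was not tested.

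Replicate numbers pair the libraries only by number. Their deviations correlated at 0.01 over all tested genes and −0.15 over genes of at least 5 CPM. The replicate block gave 29 large and 20 small subunit genes lower, with 47 of the 48 calls shared, and 0 large and 1 small higher. With crossed numbers, a pairing added after seeing the data, 35 large and 24 small subunit genes were lower and 2 and 1 higher. Depth limits the members with under 65 reads, and 2 libraries a group limit the rest.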

Other observations

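Pseudogenes of ribosomal proteins that have rows of their own gave the following values. Of 27 such rows 22 had counts and 16 were tested. Of the 16, 4 were lower (29.5% of all genes were), 0 higher (28.6% of all genes) and 12 did not pass. RPSAP52 had 14 and 19 reads in PELP1 shRNA libraries, against 59 and 79 reads in control shRNA libraries, a log2 fold change of −2.28 ± 0.28 (edgeR FDR 2.30e-10). RPSAP58 had 48.3 and 54.1 CPM in PELP1 shRNA libraries, against 59.8 and 59.0 CPM in control shRNA libraries (−0.22 ± 0.06), at a level close to that of RPSA itself. Reads of a member and of a near-identical copy could have been split between their rows. These rows were named after their values were seen.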
